A study of Arabidopsis thaliana with 12 samples.

Results

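AP2/ERF transcription factors are plant proteins that bind DNA through an AP2 domain. The set described here was chosen by locus identifier and covers ERF, DREB, CBF and RAP2 genes of Arabidopsis. It lists 53 loci, of which 52 were analysed among 34212 loci in the gene table. The remaining locus, AT4G25490, was not analysed here. All 52 had counts and were tested with 28549 genes in all. They comprised 11 genes of ERF group IX, 8 of group VIII, 5 of group VII, 6 of group X, 19 of the DREB and CBF groups and 3 cytokinin response factors (CRF).

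Transcripts were measured by RNA sequencing of whole rosettes from 2 natural accessions, Cvi and Shahdara (Sha). Plants aged 3 weeks were given ozone (O3) at 350 nL L-1 or clean air (CA) for 2 h. The 4 groups were Cvi in O3, Cvi in CA, Sha in O3 and Sha in CA, with no mutation or transgene named in the labels, 3 replicate libraries each, and every library came from 4 pooled rosettes. Rosettes were collected directly after exposure, so each group is a single time point of 1 dose.

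Ethylene, jasmonate, abscisic acid and calcium signals are all known to act in leaf responses to ozone. In ERF groups VIII, IX and X many members bind the GCC box (GCCGCC) in promoters of defence genes. Group IX holds mainly activators, and group VIII holds repressors that carry an EAR motif. Group VII proteins are degraded in the presence of oxygen and nitric oxide and act in hypoxia. DREB and CBF proteins bind the DRE or CRT element (core CCGAC) in genes of cold and dehydration responses.

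Total estimated counts were between 10794727 and 33572001 per library, and the Cvi libraries were on average deeper. Values are given as CPM, the count divided by the TMM-adjusted library size and scaled to 1e6. The floor was set at 3 counts a library. Where all libraries of a group were at or under it, folds against that group are lower bounds. Leaf markers were abundant in every library (summed level of 6 genes between 10650 and 62060 CPM), and they were lower in O3, at 10650 to 24010 CPM, than in CA, at 42090 to 62060 CPM. The 3 root markers and the 3 seed markers examined were at the floor in every group. The 4 floral identity genes summed to 0.157 to 0.627 CPM in Cvi and to 3.06 to 8.87 CPM in Sha. Replicate 2 of Sha stood apart in both treatments, since pairs with it had a chi-square per degree of freedom of 50.5 to 80.7, against 15.0 to 25.2 for the other replicate pairs. Rosettes are mixtures of cells, so fewer cells of a type and less RNA per cell cannot be told apart, and the part of these leaf and floral differences in the results below was not tested.

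Most of the members rose in O3, in both accessions, and none rose in one accession while falling in the other. In Cvi, 39 of the 52 were higher in O3 than in CA and 3 were lower (likelihood-ratio test in edgeR for changes beyond 1.2-fold, false discovery rate (FDR) of at most 0.05 over all genes). Among all genes tested, 24.3% were higher and 23.2% lower in Cvi, 47.5% in all. In Sha, 32 of the 52 were higher and 1 was lower, while 17.9% of all genes were higher and 16.6% lower, 34.5% in all. With a limit of 1.2 on the log2 scale in place of 1.2-fold, 31 members were higher and 1 lower in Cvi, and 18 were higher and none lower in Sha. Of all 28549 genes, that limit left 3773 higher and 1551 lower in Cvi, and 2075 higher and 880 lower in Sha. Without replicate 2 of Sha in both treatments, an alternative added after the data were seen, 34 members were called in Sha and 45 in Cvi. All 32 that rose in Sha also rose in Cvi, and 7 more rose in Cvi alone by these calls. Of the 7, RAP2.12, HRE1, ORA47, DDF1 and AT1G19210 were also called in Sha under some of the alternatives. Among the 19107 genes that averaged 1 CPM or more, 28.8% were called higher in Cvi and 24.4% in Sha.

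The median log2 fold change of the 52 members was 2.68 in Cvi and 1.63 in Sha, beside a median of 0.00 over all genes in each accession. With members against a floor group set at their lower bound, and members at the floor in both groups left out, the medians were 2.46 in Cvi (51 members) and 1.13 in Sha (49 members). The O3 libraries lay above all CA libraries for 41 members in Cvi and for 29 in Sha, against 28.4% and 21.6% of all genes. They lay below all CA libraries for 4 members in Cvi and for 1 in Sha, against 31.0% and 21.2% of all genes. Together the members took 0.206 ± 0.00660% of the counts in Cvi in O3 and 0.0444 ± 0.00368% in Cvi in CA (SD, n = 3). In Sha they took 0.140 ± 0.00713% in O3 and 0.0528 ± 0.00252% in CA (SD, n = 3).

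**Figure D1:**
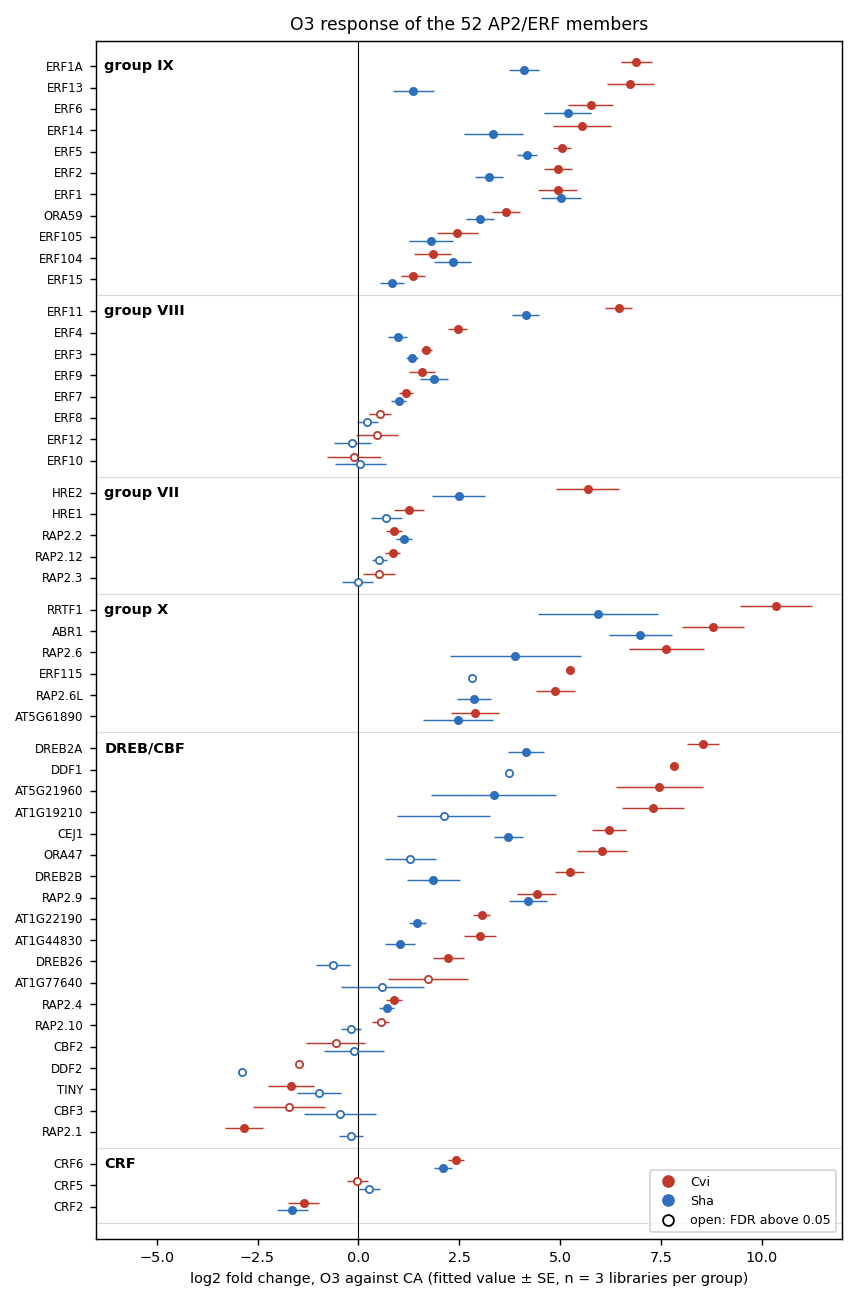
Log2 fold change of O3 against CA for the 52 members, by subfamily, in Cvi (red) and Sha (blue). Points are fitted values and bars are SE, filled points had an FDR of at most 0.05, and 3 members without counts in a group (ERF115, DDF1 and DDF2) have no bar. All 11 members of group IX are filled and right of 0 in both accessions, and CRF2 is filled left of 0 in both.

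Group IX contains the best known ethylene and jasmonate responsive activators, and all 11 members rose in both accessions. Log2 fold changes ran from 1.36 to 6.89 in Cvi and from 0.84 to 5.19 in Sha. ERF1A, a GCC-box activator, had the largest rise of the group in Cvi, with 319.9, 232 and 312 CPM in O3 libraries, against 2.1, 1.62 and 3.57 CPM in CA libraries. In Sha it had 177, 66.9 and 178 CPM in O3 libraries, against 10.4, 5.38 and 8.66 CPM in CA libraries. O3 and CA libraries did not overlap in either accession, and O3 replicate 2 of Sha was the lowest of its group. The log2 fold change was 6.89 ± 0.38 in Cvi (SE, FDR = 7.6e-44) and 4.11 ± 0.37 in Sha (FDR = 6.5e-20).

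ERF2, a close relative of ERF1A and also an activator, had 166, 156 and 204 CPM in Cvi in O3, against 3.67, 4.91 and 8.50 CPM in Cvi in CA. In Sha its values were 181, 89.4 and 204 CPM in O3 and 22.4, 11.6 and 16 CPM in CA. The O3 levels of the accessions overlapped, whereas every Cvi library in CA lay below every Sha library in CA. The upstream sequences of ERF1A and ERF2 are shown because both genes rose in O3 in both accessions and both were lower in Cvi in CA. They are the 250 bases before the annotated start in RefSeq, assembly TAIR10.1, chr4:9758953-9759202 on the plus strand and chr5:19172957-19173206 on the minus strand, each written 5′ to 3′ in the direction of the gene. Capitals mark matches to the motifs searched, here ACGTGT (an ABRE core) and TTGACC (a W box).
ERF1A: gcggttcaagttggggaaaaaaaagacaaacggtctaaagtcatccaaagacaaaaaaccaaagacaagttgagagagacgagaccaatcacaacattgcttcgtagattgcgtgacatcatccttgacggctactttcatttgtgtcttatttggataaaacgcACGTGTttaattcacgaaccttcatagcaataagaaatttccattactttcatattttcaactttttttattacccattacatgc
ERF2: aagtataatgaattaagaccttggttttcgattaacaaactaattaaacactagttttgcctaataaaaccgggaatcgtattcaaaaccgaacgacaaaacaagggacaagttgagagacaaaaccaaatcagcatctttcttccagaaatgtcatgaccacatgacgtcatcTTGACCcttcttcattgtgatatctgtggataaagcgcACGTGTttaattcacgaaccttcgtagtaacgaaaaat
Both hold a run of 26 identical bases, cgcACGTGTttaattcacgaaccttc, which begins 88 bases before the start in ERF1A and 41 bases before it in ERF2.

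ERF6, an activator phosphorylated by stress-activated MAP kinases, had the largest rise of group IX in Sha, with 29.8, 7.30 and 33.6 CPM in O3, against 0.453, 0.581 and 0.824 CPM in CA. In Cvi its values were 59.5, 45.6 and 55.9 CPM in O3 and 0.345, 0.735 and 1.92 CPM in CA. The groups were apart in both accessions, and the log2 fold changes were 5.76 ± 0.55 in Cvi and 5.19 ± 0.59 in Sha (FDR = 4.6e-17 and 9.2e-14). ERF13 behaved otherwise. Its levels were 14.4, 9.71 and 13.3 CPM in Cvi in O3, against 0.157, 0.0387 and 0.131 CPM in Cvi in CA, a log2 fold change of 6.74 ± 0.59. In Sha they were 1.73, 0.422 and 0.792 CPM in O3, against 0.544, 0.363 and 0.275 CPM in CA, where O3 and CA libraries overlapped and the log2 fold change was 1.36 ± 0.51 (FDR = 0.029). The Sha call for ERF13 ended when CA replicate 2, CA replicate 3 or O3 replicate 1 was left out, with log2 fold changes of 0.87 to 1.66 over the libraries left out.

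The other 7 members of group IX were ERF1 and ORA59, which act on defensin genes downstream of ethylene and jasmonate, ERF5, ERF14, ERF15, ERF104 and ERF105. On the log2 scale ERF1 rose by 4.94 in Cvi and by 5.03 in Sha. ORA59 rose by 3.66 and 3.01, and ERF5, a relative of ERF6, by 5.05 and 4.18. ERF14 had at least a 28.0-fold higher level in O3 in Cvi, where its CA libraries were at the floor, and rose by 3.35 on the log2 scale in Sha (2.71 to 5.09 with single libraries left out). ERF104, a substrate of MPK6, rose by 1.85 in Cvi, and by 1.46 to 2.86 with single libraries left out, while the value in Sha was 2.34. In Cvi, ERF105 rose by 2.46 and ERF15 by 1.36. The Sha calls of ERF105 (log2 fold change 1.81) and ERF15 (0.84) were not stable. ERF105 had 2.16, 6.75 and 2.04 CPM in Sha in O3, and without O3 replicate 2 its log2 fold change was 0.96 and no longer called. ERF15 lost its call without CA replicate 1, CA replicate 3 or O3 replicate 2. ERF105 shares its locus with an opposite-strand gene, so part of its counts may belong to that gene.

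In group VIII, whose members repress transcription through the EAR motif, 5 of 8 rose in each accession and none fell. ERF11 showed the largest rise in both accessions, with 87.7, 55.7 and 65.9 CPM in Cvi in O3, against 0.470, 0.735 and 1.22 CPM in Cvi in CA. Sha had 23.1, 32.7 and 21.1 CPM in O3, against 0.998, 2.25 and 1.13 CPM in CA. The log2 fold changes were 6.45 ± 0.34 (FDR = 5.1e-61) and 4.14 ± 0.33 (FDR = 1.5e-28), and no O3 library overlapped a CA library. ERF4, a repressor of jasmonate responsive defensin expression, had 102, 97.8 and 99.2 CPM in Cvi in O3, against 15.0, 21.8 and 17.6 CPM in Cvi in CA. Its Sha values were 29.6, 46.9 and 33.9 CPM in O3 and 16.1, 24.9 and 15.3 CPM in CA, and the O3 libraries of Cvi all lay above those of Sha. On the log2 scale ERF3, ERF7 and ERF9 rose by 1.19 to 1.68 in Cvi and by 1.00 to 1.87 in Sha. ERF8, ERF10 and ERF12 were not called in either accession, with log2 values of -0.11 to 0.54 in Cvi and -0.15 to 0.22 in Sha.

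The sequence upstream of ERF11 (chr1:9956981-9957230, minus strand, TAIR10.1) is shown because it holds a GCC box, the element that ERF proteins themselves bind, near the start of the gene. In capitals are, from left to right, an ABRE core read on the other strand, the GCC box and a W box (TTGACT).
ERF11: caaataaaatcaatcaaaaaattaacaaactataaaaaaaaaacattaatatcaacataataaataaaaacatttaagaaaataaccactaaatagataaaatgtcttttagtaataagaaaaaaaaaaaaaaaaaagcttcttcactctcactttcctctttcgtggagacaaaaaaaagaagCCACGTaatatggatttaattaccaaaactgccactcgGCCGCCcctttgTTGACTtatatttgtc

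In group VII, the oxygen-sensing factors, 4 of 5 rose in Cvi and 2 of 5 in Sha. HRE2 (HYPOXIA RESPONSIVE ERF 2) had the largest rise in Cvi, with 3.18, 2.33 and 2.96 CPM in O3, against 0.0941, 0 and 0.0436 CPM in CA. The Sha values were 0.793, 0.422 and 1.02 CPM in O3 and 0.272, 0.0727 and 0.103 CPM in CA. Both CA groups were at the floor, so HRE2 was at least 24.8-fold higher in O3 in Cvi (FDR = 5.1e-25) and at least 3.77-fold higher in Sha (FDR = 1.4e-04). RAP2.2, a constitutively expressed member, had 107, 164 and 125 CPM in Sha in O3, against 60.8, 63.4 and 56.5 CPM in Sha in CA. In Cvi its values were 101, 69.3 and 86.2 CPM in O3 and 46.5, 47.7 and 44.1 CPM in CA, and its log2 fold changes were 0.89 ± 0.19 and, in Sha, 1.13 ± 0.19. RAP2.12 was 0.85 in Cvi (called) and 0.52 in Sha (FDR = 0.077, or 0.03 with a replicate block of each accession). HRE1 was 1.25 in Cvi (called) and 0.70 in Sha (FDR = 0.22, or 0.028 with that block), and its locus is shared with an opposite-strand gene. With a replicate block shared by the groups, neither RAP2.12 nor HRE1 was called in Sha. RAP2.3 was not called in either accession, at 0.52 in Cvi and -0.02 in Sha.

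Group X gave the largest rises by fitted value, and all 6 rose in Cvi and 5 in Sha. RRTF1 (REDOX RESPONSIVE TRANSCRIPTION FACTOR 1, also ERF109) had 41.9, 74.0 and 54.0 CPM in Cvi in O3, against 0, 0 and 0.131 CPM in Cvi in CA. In Sha it had 2.24, 0.603 and 1.70 CPM in O3, against 0, 0.0727 and 0 CPM in CA. Transcripts were at the floor in CA in both accessions, and the level in O3 was at least 499-fold higher in Cvi (FDR = 1.8e-62) and at least 7.65-fold higher in Sha (FDR = 2.8e-12). ABR1, a repressor of abscisic acid responses, had 29.4, 49.6 and 25.2 CPM in Cvi in O3, against 0.125, 0.0773 and 0 CPM in Cvi in CA. It had 14.0, 5.37 and 22.6 CPM in Sha in O3, against 0.0907, 0 and 0.172 CPM in Sha in CA, and in Sha this was the largest rise of the group (6.99 ± 0.78 on the log2 scale, FDR = 2.3e-21). Each shares part of its locus with an opposite-strand gene.

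The upstream sequences of both are shown because these genes were at or near 0 in CA and rose most in their group. RRTF1 (chr4:16451626-16451875, plus strand, TAIR10.1) holds ACGTGT and CCACGT, and ABR1 (chr5:25891199-25891448, plus strand) holds GCCGAC (a DRE) and GGCGGC (the GCC box read on the other strand), all in capitals.
RRTF1: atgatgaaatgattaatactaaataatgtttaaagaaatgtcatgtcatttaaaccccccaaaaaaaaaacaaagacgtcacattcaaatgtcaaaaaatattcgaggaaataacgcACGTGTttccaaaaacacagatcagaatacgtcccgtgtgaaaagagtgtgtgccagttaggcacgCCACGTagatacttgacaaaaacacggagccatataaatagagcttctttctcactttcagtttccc
ABR1: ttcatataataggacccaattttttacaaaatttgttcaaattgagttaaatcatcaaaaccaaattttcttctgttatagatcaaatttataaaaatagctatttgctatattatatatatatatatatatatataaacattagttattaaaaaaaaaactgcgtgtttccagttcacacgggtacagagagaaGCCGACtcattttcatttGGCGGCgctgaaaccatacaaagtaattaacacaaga

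RAP2.6L, which has been linked to tissue repair, had 7.70, 10.7 and 8.74 CPM in Cvi in O3, against 0.251, 0.193 and 0.479 CPM in Cvi in CA. Its Sha levels were 11.9, 5.01 and 14.8 CPM in O3 and 1.81, 0.727 and 1.79 CPM in CA. The O3 libraries of the accessions overlapped, and the Cvi libraries in CA were all below those of Sha. RAP2.6 had at least 96.4-fold more transcript in O3 in Cvi. In Sha the RAP2.6 libraries overlapped, the bound was 1.84-fold, and the call ended without O3 replicate 1, with log2 fold changes of 2.6 to 5.93 over the libraries left out. AT5G61890 rose by 2.89 in Cvi and was at least 2.14-fold higher in Sha, a call that ended without CA replicate 3 or O3 replicate 3. ERF115, a root regeneration factor, rose in Cvi only by these calls and stayed near the floor (0.0993, 0.446 and 0.104 CPM in Cvi in O3).

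In the DREB and CBF groups, 12 of 19 were higher and 2 lower in Cvi, and 8 of 19 were higher and none lower in Sha. DREB2A, an activator in dehydration and heat responses, had the largest rise in Cvi, with 182, 333 and 219 CPM in O3, against 0.533, 0.657 and 0.784 CPM in CA. Sha had 12.3, 4.28 and 11.7 CPM in O3, against 0.544, 0.509 and 0.515 CPM in CA. The CA values of the accessions overlapped, between 0.509 and 0.784 CPM, and each O3 library of Cvi exceeded each O3 library of Sha more than 10-fold. The log2 fold changes were 8.54 ± 0.39 in Cvi (FDR = 5.2e-65) and 4.16 ± 0.45 in Sha (FDR = 4.0e-18). DREB2B, a close relative of DREB2A, had 17, 30 and 18.2 CPM in Cvi in O3, against 0.408, 0.503 and 0.828 CPM in Cvi in CA. The Sha levels were 0.577, 0.362 and 0.641 CPM in O3 and 0, 0.145 and 0.206 CPM in CA, and the Sha call ended without CA replicate 1. For DREB2A and DREB2B too, an opposite-strand gene covers part of the locus.

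AT1G19210, annotated only as a DNA-binding protein of this superfamily, had 8.24, 7.98 and 10.2 CPM in Cvi in O3, against 0, 0.0773 and 0.0871 CPM in Cvi in CA. It had 0.433, 0.121 and 0.0754 CPM in Sha in O3 and 0.0907, 0 and 0.0344 CPM in Sha in CA, where the libraries overlapped. CA was at the floor, and the level in Cvi was at least 77.5-fold higher in O3 (FDR = 2.4e-52). In Sha it was called only under some alternatives, filterByExpr and the fit without Sha O3 replicate 3. This locus overlaps its neighbour on the same strand, so reads of the shared stretch cannot be assigned with certainty. The upstream sequences of DREB2A, DREB2B and AT1G19210 are shown because they were, with DDF1, the DREB members with the largest fitted differences between the accessions in O3. They are chr5:1601955-1602204 and chr3:3455105-3455354, both on the plus strand, and chr1:6627689-6627938 on the minus strand (TAIR10.1). Capitals mark ABRE cores on either strand in all 3 genes. In AT1G19210 they also mark, from left to right after the ABRE cores, CGCGTT read on the other strand and a W box on each strand. DDF1 held none of the motifs searched, and neither did AT5G21960 and ORA47, which came next by fitted difference in O3.
DREB2A: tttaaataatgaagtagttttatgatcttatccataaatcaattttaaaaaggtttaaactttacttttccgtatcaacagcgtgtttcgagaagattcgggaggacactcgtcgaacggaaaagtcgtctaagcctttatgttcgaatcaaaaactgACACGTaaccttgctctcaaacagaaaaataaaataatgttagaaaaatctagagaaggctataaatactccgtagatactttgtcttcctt
DREB2B: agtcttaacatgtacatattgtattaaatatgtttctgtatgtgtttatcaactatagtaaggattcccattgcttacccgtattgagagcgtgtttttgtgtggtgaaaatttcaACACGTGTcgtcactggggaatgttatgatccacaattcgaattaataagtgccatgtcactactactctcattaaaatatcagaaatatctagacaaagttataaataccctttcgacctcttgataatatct
AT1G19210: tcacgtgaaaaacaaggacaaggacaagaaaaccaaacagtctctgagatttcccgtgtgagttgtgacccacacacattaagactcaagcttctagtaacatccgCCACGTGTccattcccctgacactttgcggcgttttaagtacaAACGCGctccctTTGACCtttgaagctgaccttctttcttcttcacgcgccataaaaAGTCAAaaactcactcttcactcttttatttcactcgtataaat

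ORA47, a regulator of jasmonate synthesis genes, had 88.1, 79.6 and 88.8 CPM in Cvi in O3, against 0.753, 1.24 and 1.92 CPM in Cvi in CA. In Sha the O3 and CA libraries overlapped, with 7.50, 1.03 and 3.73 CPM in O3 and 0.453, 1.02 and 3.33 CPM in CA. The log2 fold change was 6.04 ± 0.62 in Cvi (FDR = 3.5e-14) and 1.29 ± 0.64 in Sha (FDR = 0.12, or 0.045 with a replicate block of each accession). With the block shared by the groups, ORA47 was not called in Sha. ORA47 also shares its locus with an opposite-strand gene. CEJ1 (COOPERATIVELY REGULATED BY ETHYLENE AND JASMONATE 1), a repressor, had 21.7, 21.1 and 23.3 CPM in Cvi in O3, against 0.125, 0.348 and 0.436 CPM in Cvi in CA. It had 11.4, 7.72 and 17.3 CPM in Sha in O3, against 1.27, 0.509 and 0.996 CPM in Sha in CA, and the groups were apart in both accessions.

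DREB26 rose in Cvi alone by these calls, with 11.3, 7.38 and 6.86 CPM in O3, against 1.16, 2.2 and 2.09 CPM in CA. In Sha it had 2.31, 1.09 and 1.51 CPM in O3 and 2.63, 1.16 and 3.61 CPM in CA, which overlapped (log2 fold change -0.63 ± 0.42, FDR = 0.31). AT1G44830 had 4.67, 3.91 and 3.90 CPM in Cvi in O3, against 0.251, 0.464 and 0.871 CPM in Cvi in CA. Its Sha values were 2.52, 4.04 and 3.43 CPM in O3 and 1.72, 0.872 and 2.2 CPM in CA, and the Sha call ended without CA replicate 1, CA replicate 2 or O3 replicate 2. AT1G22190, a relative of RAP2.4, had 178, 162 and 125 CPM in Cvi in O3, against 17.4, 17.4 and 21.1 CPM in Cvi in CA. Sha had 60.9, 76.0 and 45.4 CPM in O3, against 21.3, 21.1 and 23.9 CPM in CA, so both accessions rose and Cvi rose further.

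RAP2.9, a relative of RAP2.1, had the largest rise of the DREB groups in Sha, with 6.13, 3.5 and 6.41 CPM in O3, against 0.544, 0.145 and 0.240 CPM in CA. In Cvi its values were 4.42, 3.57 and 4.21 CPM in O3 and 0.188, 0.309 and 0.0436 CPM in CA, nearly the same rise (4.42 ± 0.48 in Cvi and 4.21 ± 0.48 in Sha on the log2 scale). DDF1, a relative of the CBF genes, had 3.18, 5.75 and 3.45 CPM in Cvi in O3, against 0, 0 and 0.0436 CPM in Cvi in CA, at least 36.3-fold higher in O3. It stayed at the floor in both Sha groups, though it was called in Sha with filterByExpr or without Sha O3 replicate 2. RAP2.4, which acts in light and water stress responses, had 256, 292 and 224 CPM in Cvi in O3, against 148, 143 and 128 CPM in Cvi in CA. The Sha levels were 134, 156 and 119 CPM in O3 and 98.7, 66.2 and 87.7 CPM in CA, and the Sha call ended without CA replicate 2 or O3 replicate 2. AT5G21960 was at least 47.0-fold higher in O3 in Cvi and at least 1.16-fold higher in Sha, where the call ended without O3 replicate 3.

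Falls were few. RAP2.1, an EAR-containing repressor of the DREB family, had 0.149, 0.198 and 0.244 CPM in Cvi in O3, against 1.60, 1.59 and 1.22 CPM in Cvi in CA, and fell by 2.84 on the log2 scale (SE 0.46, FDR = 1.9e-10). In Sha it had 1.80, 1.21 and 2.3 CPM in O3 and 2.09, 2.25 and 1.89 CPM in CA, which overlapped. TINY fell by 1.68 on the log2 scale in Cvi (FDR = 0.0095), a call that ended without CA replicate 1, O3 replicate 2 or O3 replicate 3, and was -0.98 ± 0.54 in Sha (FDR = 0.18). The cold-inducible CBF2 and CBF3 were low in every library, at most 0.697 CPM, and neither was called. Their log2 fold changes were -0.56 and -1.72 in Cvi, and -0.10 and -0.46 in Sha. DDF2 was at the floor in all 4 groups. RAP2.10 and AT1G77640 were not called, with 0.56 and 1.73 in Cvi and -0.18 and 0.60 in Sha.

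The 3 CRF genes, which respond to cytokinin, went separate ways. CRF6, which has also been tied to oxidative stress, had 31.1, 34 and 30.6 CPM in Cvi in O3, against 5.33, 5.10 and 7.62 CPM in Cvi in CA. Sha had 11.2, 15.0 and 12.8 CPM in O3, against 2.54, 3.92 and 2.68 CPM in CA, and no libraries overlapped in either accession. CRF2 was the 1 member that fell in both accessions, with 5.71, 5.99 and 3.97 CPM in Cvi in O3, against 16.3, 10.3 and 13.5 CPM in Cvi in CA. The Sha values were 6.63, 2.77 and 4.68 CPM in O3 and 22.9, 7.05 and 13.9 CPM in CA, and the log2 fold changes were -1.36 ± 0.39 in Cvi and -1.64 ± 0.39 in Sha. CRF5 was not called (-0.03 in Cvi and 0.27 in Sha).

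**Figure D2:**
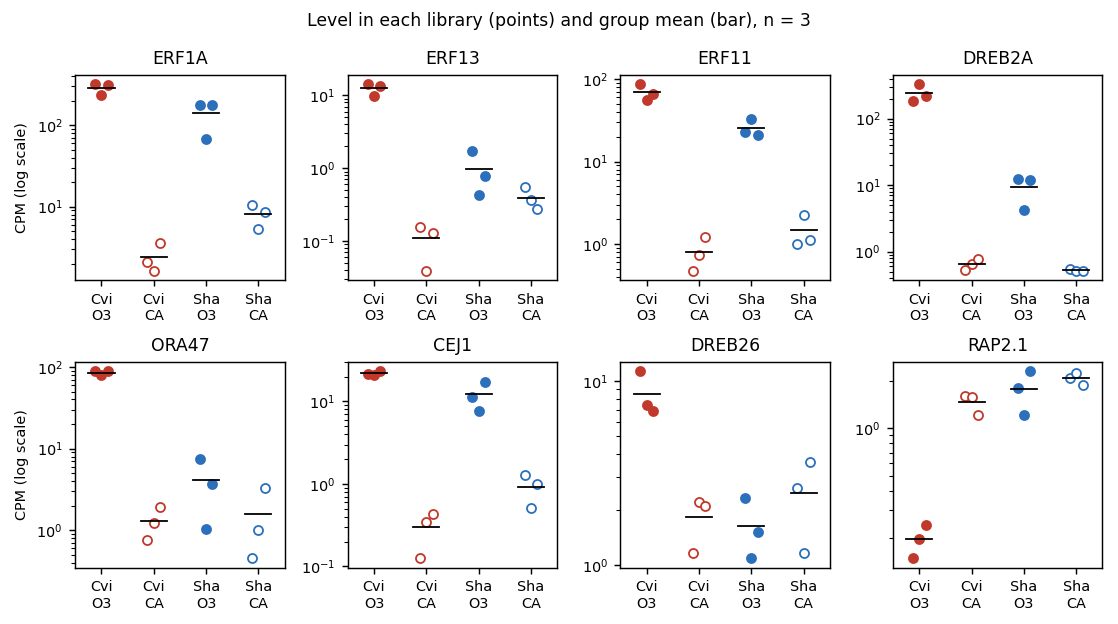
CPM of 8 members in each of the 12 libraries on log axes that differ between panels, with Cvi (red) and Sha (blue), O3 filled and CA open, and bars at the group means. DREB2A lies between 182 and 333 CPM in Cvi in O3 and between 4.28 and 12.3 CPM in Sha in O3, and RAP2.1 is the panel in which Cvi in O3 is lowest.

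The next question was whether the O3 response differed between the accessions, which was tested as the Cvi response minus the Sha response. It differed for 16 of the 52 members, of which 15 had the higher value in Cvi and 1, RAP2.1, the lower. Over all genes tested, 6.33% were higher and 2.6% lower by the same test, 8.93% in all, and 8.54% of the genes averaging 1 CPM or more were higher. With the limit of 1.2 on the log2 scale, 6 members were higher and 1 lower, beside 464 higher and 66 lower of all 28549 genes. Of the 16 members, 12 were called higher in O3 in both accessions, as were 32 of all 52 members. Among the 12, HRE2 was at the floor in both CA groups. The Sha calls of ERF13, DREB2B and AT1G44830 ended when single libraries were left out. Regardless of the call, 42 of the 52 members had the larger log2 response in Cvi, and the median difference was 0.69, beside 0.03 over all genes.

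ERF13 had the largest called difference, 5.38 ± 0.78 on the log2 scale (FDR = 4.5e-10). ORA47 followed among genes above the floor, at 4.75 ± 0.89 (FDR = 2.2e-05), then DREB2A at 4.37 ± 0.60 (FDR = 8.3e-10). DREB2B differed by 3.39 ± 0.75, DREB26 by 2.86 ± 0.58 and ERF1A by 2.78 ± 0.53. Among repressors, CEJ1 differed by 2.49 ± 0.56, ERF11 by 2.31 ± 0.47 and ERF4 by 1.49 ± 0.32, while RAP2.1 differed by -2.65 ± 0.55 (FDR = 3.7e-05). AT1G44830 differed by 1.98 ± 0.54 and AT1G22190 by 1.61 ± 0.30.

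For AT1G19210 (5.20 ± 1.38) and HRE2 (3.20 ± 1.02) the fitted difference rests on CA groups at the floor and is no measure of size. Single libraries decided 6 of the 16 calls. RAP2.6L (2.02 ± 0.64, FDR = 0.025) lost its call when any of 6 libraries was left out, namely Sha CA replicates 1 and 3, Cvi CA replicates 1 and 2 and Cvi O3 replicates 2 and 3. ERF2 (1.70 ± 0.49, FDR = 0.016) lost it without Sha CA replicate 1, Cvi CA replicate 1 or 2, or Cvi O3 replicate 3. AT1G19210 lost it without Sha CA replicate 1 or 3, Sha O3 replicate 3 or Cvi CA replicate 1. HRE2 lost it without Sha CA replicate 1 or Cvi CA replicate 2. DREB2B and AT1G44830 lost it without Sha CA replicate 3. No call of a difference in response ended when replicate 2 of Sha was left out in both treatments.

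For RRTF1, DDF1 and RAP2.6, large differences between the accessions in O3 came with CA groups at the floor. Their difference in response was not called (FDR = 0.29, 1.0 and 0.42). A missed call here does not show that the responses were alike. ERF1 and RAP2.9 had differences near 0, at -0.09 ± 0.69 and 0.21 ± 0.67.

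**Figure D3:**
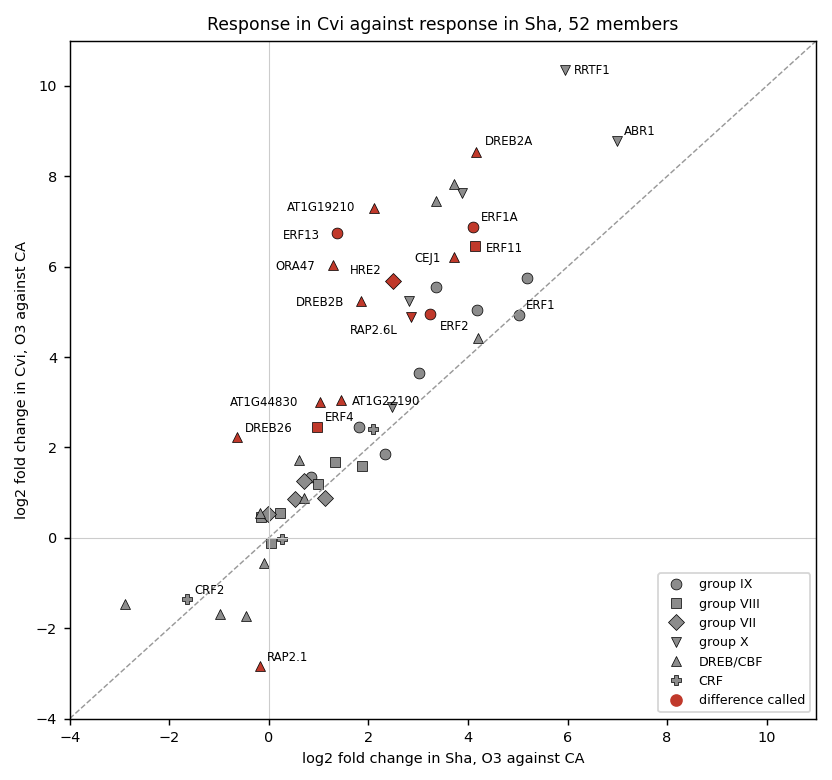
Log2 fold change of O3 against CA in Cvi (vertical) and in Sha (horizontal) for the 52 members, with the dashed line at equal response and red marks for the 16 members whose difference was called. Of the marks, 42 lie above the line, with ERF13, ORA47 and DREB2A far above it and RAP2.1 below it.

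Levels were then compared between the accessions within each treatment. In O3, 23 of the 52 members were higher in Cvi than in Sha and 2 were lower, while 18.5% of all genes were higher and 13.9% lower (32.4% in all). Of genes averaging 1 CPM or more, 20.3% were higher in O3 and 9.23% in CA. The Cvi libraries lay above all Sha libraries in O3 for 27 members and below them for 4, against 25.9% and 20.2% of all genes. In CA, 3 were higher and 6 lower, with 8.84% and 9.28% among all genes (18.1% in all). With the limit of 1.2 on the log2 scale, 10 members were higher and 1 lower in O3. In CA that limit left 0 calls in edgeR (4 members at an unadjusted p under 0.05), and DESeq2 at the 1.2-fold limit called 6. Of all 28549 genes, the log2 limit left 1774 higher and 974 lower in O3, and 963 higher and 990 lower in CA. In CA the Cvi libraries lay above those of Sha for 4 members and below for 10, against 19.5% and 17.7% of all genes. Of the 23 that were higher in Cvi in O3, 18 were not called in CA. Among all 52 members 43 were not called in CA, and among all genes 23377 of 28549. The count is thus near the share over all genes. The contrasts share libraries with the responses above and are not separate evidence. Transcript models built on a further accession, Col-0, were used for both accessions, so sequence differences at a gene may alter its counts in 1 accession.

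In O3, the largest difference by fitted value was that of DDF1, which was at least 24.2-fold higher in Cvi than in Sha. AT1G19210 was 42.0-fold higher by group means (FDR = 1.5e-37), and DREB2B had a log2 difference of 5.32 ± 0.39 (FDR = 9.1e-38). RRTF1 was 37.5-fold, RAP2.6 30.1-fold, DREB2A 26.0-fold, AT5G21960 23.3-fold and ORA47 20.9-fold higher in Cvi in O3 by group means. Sha levels in O3 were close to the floor for AT1G19210, RAP2.6 and AT5G21960, so the sizes of their folds are uncertain. RAP2.1 was lower in Cvi in O3 (-3.13 ± 0.47 on the log2 scale), and so was RAP2.2 (-0.63 ± 0.19, FDR = 0.026). The call of RAP2.2 ended without Sha O3 replicate 2, Cvi O3 replicate 2 or Cvi O3 replicate 3. The calls of ERF1A, AT5G61890, ABR1 and CEJ1 in O3 (log2 differences of 0.85 to 1.40) also ended without single O3 libraries, each without Cvi O3 replicate 1 among others.

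In CA, ERF1A was lower in Cvi than in Sha by a log2 difference of -1.75 ± 0.39 (FDR = 3.7e-04), AT1G44830 by -1.67 ± 0.42 and ERF2 by -1.55 ± 0.35. RAP2.6L (-2.25 ± 0.51), CEJ1 (-1.64 ± 0.47) and ERF12 (-1.64 ± 0.50) were also lower in Cvi. CRF6 (0.99 ± 0.23), RAP2.4 (0.73 ± 0.19) and DREB2B (1.94 ± 0.64) were higher. Of these 9 calls, CEJ1 ended without Cvi CA replicate 1, ERF12 without Cvi CA replicate 1 or 3, CRF6 without Sha CA replicate 3, RAP2.4 without Sha CA replicate 2 or Cvi CA replicate 1, and DREB2B without Sha CA replicate 1 or Cvi CA replicate 3. With the replicate block shared by the groups, ERF13 was also called (log2 difference -1.74, FDR = 0.029, against -1.67 and 0.056 without it). For 5 of the 16 members that differed in response, Cvi was lower in CA, and ERF2, RAP2.6L and AT1G44830 were not called between the accessions in O3.

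**Figure D4:**
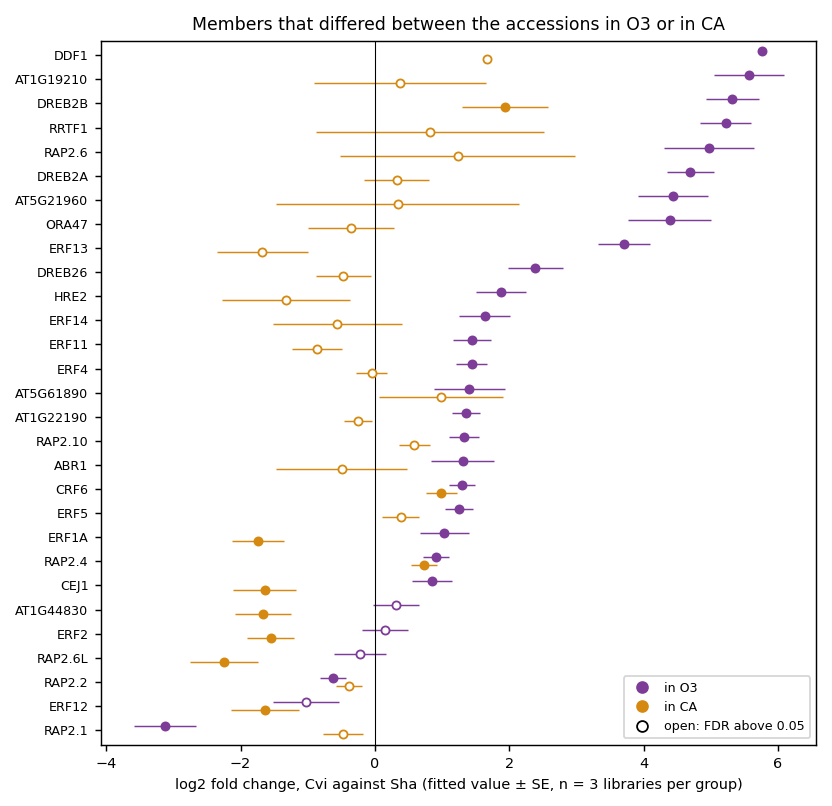
Log2 fold change of Cvi against Sha in O3 (purple) and in CA (orange) for the members called in either, sorted by the value in O3. Points are fitted values with SE, filled where the FDR was at most 0.05, and DDF1 has no bar because a group held no counts. At the top, from DDF1 to ORA47, the O3 values lie above 4 while among these DREB2B is the filled CA point.

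Lists of target genes and upstream regulators were described by the same fits. Of 8 genes with GCC-box or ethylene and jasmonate defence functions, 4 rose in Cvi and 2 in Sha (4 with the replicate block of each accession or without Sha CA replicate 1), and none fell. These are 50% and 25% of the list, beside 24.3% and 17.9% of all genes, so the Sha share is near that of all genes. With the limit of 1.2 on the log2 scale, 1 rose in Sha, beside 2075 of all 28549 genes. The defensin gene LCR67 (PDF1.1) had the largest called rise in both accessions. It had 2.23, 1.09 and 0.905 CPM in Cvi in O3, against 0, 0.0387 and 0 CPM in Cvi in CA, at least 12.4-fold higher. In Sha it had 3.25, 1.39 and 2.53 CPM in O3, against 0, 0 and 0 CPM in CA, at least 12.1-fold higher. The 4 related defensin genes PDF1.2, PDF1.2b, PDF1.2c and PDF1.3 were lower in Cvi than in Sha in both treatments, and reads may be shared among such similar genes. Of the 8 list genes, 4 (50%) were called lower in Cvi and 0 higher in each treatment. Among all genes, 9.28% were lower in CA and 13.9% in O3.

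Of 12 cold and dehydration genes known as targets of CBF or DREB factors, none rose, 8 fell in Cvi and 5 fell in Sha (8 without Sha O3 replicate 2), beside 23.2% and 16.6% of all genes that fell. Of the same list, 1 gene was called higher in Cvi with RLE normalisation, filterByExpr, no minimum fold change, only the libraries compared, either replicate block or several single libraries left out, and 1 in Sha without Sha CA replicate 2. GolS3, a galactinol synthase, had the largest fall in both. Its values were 0, 0 and 0.139 CPM in Cvi in O3, against 2.95, 5.14 and 3.40 CPM in Cvi in CA, and 0.433, 0.603 and 0.603 CPM in Sha in O3, against 2.45, 3.71 and 3.98 CPM in Sha in CA. With the limit of 1.2 on the log2 scale, 4 genes of the list fell in Cvi and 2 in Sha, beside 1551 and 880 of all 28549 genes. The median log2 fold change of this list was -1.28 in Cvi and -0.60 in Sha.

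Of 13 hypoxia genes, targets of group VII factors, 8 rose in Cvi (5 without Cvi CA replicate 2 or Cvi O3 replicate 1) and 6 rose in Sha, and none fell. These are 61.5% and 46.2% of the list, beside 24.3% and 17.9% of all genes called higher. The Sha count was 10 with the replicate block of each accession, no minimum fold change, library sizes alone or filterByExpr. With the limit of 1.2 on the log2 scale, 4 rose in Cvi and 2 in Sha, beside 3773 and 2075 of all 28549 genes. The largest called rise in Cvi was that of AT4G33070, a pyruvate decarboxylase gene, with 6.6, 11.7 and 5.54 CPM in O3, against 0.125, 0.271 and 0.218 CPM in CA. In Sha it was that of the haemoglobin gene HB1, with 35.0, 10.5 and 44.8 CPM in O3, against 6.35, 1.82 and 7.66 CPM in CA. In CA, 12 of the 13 were lower in Cvi than in Sha, beside 9.28% of all genes. In O3, 9 were lower and 1 was higher in Cvi, beside 13.9% and 18.5% of all genes.

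Of 14 upstream regulators, 9 rose and 3 fell in Cvi, and 8 rose and 2 fell in Sha (1 without Sha CA replicate 3). The shares that rose were 64.3% and 57.1%, beside the same 24.3% and 17.9%, and the shares that fell, 21.4% and 14.3%, were near the 23.2% and 16.6% of all genes. With the limit of 1.2 on the log2 scale, 3 rose in Sha, beside 2075 of all 28549 genes, and 0 fell in either accession. MYB15, a repressor of CBF genes, had the largest rise in both. It had 305, 308 and 311 CPM in Cvi in O3, against 0.502, 0.232 and 0.436 CPM in Cvi in CA, and 132, 74.7 and 100 CPM in Sha in O3, against 0.544, 0.363 and 0.859 CPM in Sha in CA. SCRM2 (ICE2), an activator of CBF genes, had the largest fall, with log2 fold changes of -1.22 ± 0.18 in Cvi and -1.21 ± 0.19 in Sha. The ubiquitin ligase genes DRIP1 and DRIP2, whose products mark DREB2A protein for degradation, rose by 1.45 and 1.74 in Cvi and by 0.77 and 0.96 in Sha.

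**Figure D5:**
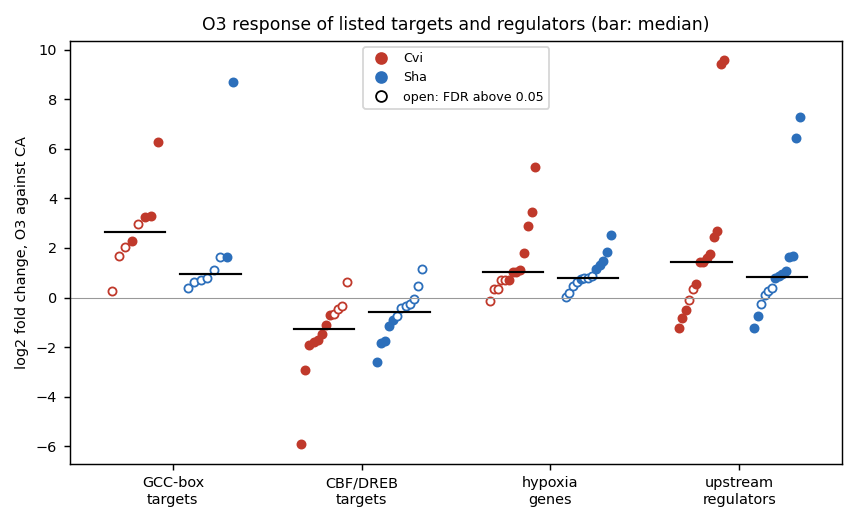
Log2 fold change of O3 against CA for the genes of 4 lists in Cvi (red) and Sha (blue), sorted within each list, filled where the FDR was at most 0.05 and with a bar at the median. The CBF and DREB targets lie mostly below 0 with medians of -1.28 and -0.60, whereas the other lists have medians of 2.63, 1.01 and 1.45 in Cvi.

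Promoter windows of 300 bases (250 before to 50 after the annotated start) were searched on both strands for the motifs printed above. All 52 analysed members had a window among 27443. An ABRE core (ACGTGG or ACGTGT, which overlap each other on opposite strands at CCACGTGT and the like) was in 19 members, 36.5%, and in 18.9% of all windows. The GCC box (GCCGCC) was in 5 members, 9.62%, beside 2.57%. They were ORA59, ERF15, ERF11, ABR1 and CRF6, which all rose in both accessions, as did 32 of all 52 members. The Sha call of ERF15 ended when single libraries were left out. A DRE (ACCGAC or GCCGAC) was in 7 members, 13.5%, beside 8.72%. A W box (TTGACC or TTGACT) was in 12, 23.1%, beside 32.4%, and CGCGTT in 4, 7.69%, beside 3.40%. None of the motifs was in 20 members, among them ERF13 and ORA47. Among the 16 members with a called difference, 7 held an ABRE core (43.8%) and 6 a W box (37.5%). Of the 39 members higher in Cvi, 41% held an ABRE core and 25.6% a W box. The ABRE share of the 16 is thus near that of these 39, and their W-box share is near the 32.4% of all windows. These matches are descriptions of letters in a window of the Col-0 genome.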

How the data were processed

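RNA from 3 pools of 4 whole rosettes per group was sequenced after stranded mRNA library preparation. Per the labels and the study's methods, the authors trimmed reads with Trimmomatic 0.33 and estimated counts with kallisto against AtRTD2 transcripts, and the deposited values are estimated counts per gene, 69.45% of them not whole (tolerance 1e-09). Whether counting used strand is not given in the sources used here. Columns of 6 further libraries were not used.

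Counts were rounded, 5663 loci without a count in the 12 libraries were removed, and 28549 genes were fitted with edgeR 4.0.16 (R 4.3.3) using TMM factors, 4 group means, and a likelihood-ratio test against a 1.2-fold change. P-values were adjusted over all genes (Benjamini-Hochberg, FDR of at most 0.05). This fit uses the likelihood-ratio test, as the study's methods do, rather than the quasi-likelihood test, which was an alternative. The limit printed in the study is written as a log2 fold change of 1.2. It was read here as 1.2-fold, which is uncertain. A log2 limit of 1.2 was run as an alternative. It is given beside the counts of all members and beside some list counts, and not beside the counts by subfamily. In both fits the limit was the change tested against, which is stricter than a cutoff on the fitted value. Counts under the log2 limit are therefore not those of the study's own rule, which was not run. Alternatives were DESeq2 1.42.0, other normalisations, filters and fold limits, replicate blocks (of each accession, or shared by the groups) and single libraries left out. CPM are counts relative to the TMM-scaled library size, times 1e6. Replicates are described as biological. Gene names and promoter windows came from RefSeq TAIR10.1, which matched 33437 of the 34212 loci. Overlapping genes were read from the same annotation, and blastn 2.17.0 was used to look for near-identical copies.

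Same-numbered libraries deviated together in Sha between O3 and CA (r = 0.385, 0.592 and 0.406) and between the accessions in CA (r = 0.257, 0.413 and 0.223), so a replicate block is given beside those results where it changed a call. Replicates 1 and 3 of Sha also deviated together across numbers (r = 0.252 and 0.238 between O3 and CA). Pairs of Sha replicate 2 with another number had r of -0.454 to -0.409. Between the accessions in CA, replicates 1 and 3 gave r = -0.022 and 0.164 across numbers. The pairing comes from replicate numbers in the labels and these correlations across genes.

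Values per library are given for the member with the largest called rise and fall in each subfamily and accession (mean of at least 1 CPM), every member called for a difference in response, and the 3 largest called accession differences in each direction and treatment. The members and lists were chosen with earlier results of these data known.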

Additional observations from a re-analysis of the deposited data

Results flagged for a closer look

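The O3 response differed between Cvi and Sha, by the test of the difference itself, for 16 members. On the log2 scale, as the Cvi response minus the Sha response, the differences were 5.38 for ERF13, 5.20 for AT1G19210, 4.75 for ORA47 and 4.37 for DREB2A. They were 3.39 for DREB2B, 3.20 for HRE2, 2.86 for DREB26 and 2.78 for ERF1A. Smaller positive differences were 2.49 for CEJ1, 2.31 for ERF11, 2.02 for RAP2.6L, 1.98 for AT1G44830, 1.70 for ERF2, 1.61 for AT1G22190 and 1.49 for ERF4. RAP2.1 had a difference of -2.65. The values of AT1G19210 and HRE2 rest on CA groups at the floor and are not measures of size.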

How the results depend on the processing

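No called member changed direction under any alternative run. Leaving aside the log2 limit, the calls that held under every alternative were 40 of 42 for the O3 response in Cvi, 24 of 33 in Sha, 10 of 16 for the difference in response, 20 of 25 between the accessions in O3 and 4 of 9 in CA. Members called only under some alternative were 5 in Cvi, 7 in Sha, 0 for the difference, 10 between the accessions in O3 and 5 in CA. Those in Cvi were AT1G77640, CBF3, ERF8, RAP2.10 and RAP2.3. In Sha they were AT1G19210, CBF3, DDF1, HRE1, ORA47, RAP2.12 and TINY. A log2 fold change limit of 1.2 left 1 member lower in Cvi, 18 higher and 0 lower in Sha, 6 with a higher response in Cvi, 10 higher and 1 lower in Cvi in O3, and 0 higher and 0 lower in CA. DESeq2 gave 1 member higher in CA and 1 lower in O3, and library sizes alone gave 5 lower in O3. With single libraries left out, members lower in Sha were between 1 and 2, and members lower in Cvi in O3 were between 1 and 3. For the 47 genes of the 4 lists, the difference in response gave 3 to 7 higher and 1 to 3 lower with single libraries left out, and 2 lower with no minimum fold change, library sizes alone, the replicate block of each accession or without replicate 2 of Sha. Between the accessions, 3 list genes were higher in CA with DESeq2, and in O3 3 with library sizes alone and 4 to 10 with single libraries left out. The log2 limit left 6 list genes higher and 2 lower in Sha, 4 lower in Cvi, 1 higher for the difference, 2 higher and 9 lower in CA, and 1 higher and 10 lower in O3. The replicate block of each accession gave 45 called members in Cvi against 42, and 16 against 16 for the difference. The block shared by the groups gave 29 against 25 between the accessions in O3. These pairs shared only a number (r = 0.127, -0.098 and -0.043 between O3 and CA in Cvi, and 0.026, -0.154 and -0.009 between the accessions in O3). The median log2 value of genes with at least 1 CPM was -0.13 in Cvi, and -0.31 with upper-quartile factors. With library sizes alone it was -0.28 between the accessions in O3, against 0.03. Low counts limit the members at the floor. Causes of these changes were not tested.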

Other observations

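Neighbouring members on a chromosome did not always move together. ERF12 and ERF11 lie 2668 bases apart on chromosome 1. ERF11 rose in both accessions, and ERF12 was not called, with log2 fold changes of 0.46 in Cvi and -0.15 in Sha. ERF6 and ERF1A, 5041 bases apart on chromosome 4, rose in both accessions, and so did ERF2 and ERF5, 6924 bases apart on chromosome 5. CBF2 and CBF3, 1774 bases apart on chromosome 4, were not called in either.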
